A study of Mus musculus with 47 samples.

Results

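Endothelial cells line blood vessels, and 10 genes that mark them were read across melanoma tumors grown in mice. The members were named as a list and matched by symbol in the GENCODE annotation of GRCm39, and all 10 of them were found among the 56748 genes of the count table. RNA was sequenced from pieces of subcutaneous tumors grown from B78-D14 cells, an amelanotic mouse melanoma line derived from B16 that lacks Cdkn2a. The groups were 4 tumors from control cells (mtDNA wild type), 7 tumors from m.12,436 40% cells and 7 tumors from m.12,436 60% cells, where the percentage is the share of mtDNA copies (heteroplasmy) with a truncating G>A edit of Mt-Nd5, a complex I gene of the mitochondrial genome. The edit was made with a mitochondrial base editor in the cancer cells before grafting, so the vessels of the tumors came from unedited hosts. All hosts were male C57BL/6 mice, the cells were injected with Matrigel, no tumor was treated, and tumors were taken at the endpoint. Fragments of tumor were sequenced, so each value describes a piece and not the whole tumor. The number of fragments per tumor is not stated, and each sample is counted here as 1 tumor. The cell populations were edited pools, not panels of independent lines. Columns of counts were assigned to these groups by inference from their names, as given under the processing of the data. Cultured B78-D14 cells served as background, with 4 cultures of control cells and 4 of m.11,944 60% cells, which carry another truncating edit of Mt-Nd5.

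Vessels are held together and steered by a small set of surface proteins. Vascular endothelial growth factors bind receptors such as Kdr and drive sprouting, whereas angiopoietin 1, made mostly by cells around the vessel, binds Tek and favours quiescent, tightly sealed vessels. Junction proteins such as Cdh5, Pecam1, Esam and Cldn5 join neighbouring cells and limit leakage.

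Among the junction genes, Pecam1 (CD31, an adhesion molecule; ENSMUSG00000020717) lies at chr11:106543689-106641454. Cdh5 (VE-cadherin, the adherens junction protein; ENSMUSG00000031871) lies at chr8:104828231-104871143. Esam (an endothelial adhesion molecule of tight junctions; ENSMUSG00000001946) lies at chr9:37439344-37449615, and Cldn5 (claudin 5, the main claudin of endothelial tight junctions; ENSMUSG00000041378) at chr16:18595597-18597012. Of the receptors, Kdr (VEGFR2; ENSMUSG00000062960) lies at chr5:76093487-76139884, and both angiopoietin receptor genes are on chromosome 4, Tek (Tie2; ENSMUSG00000006386) at chr4:94627291-94763224 and Tie1 (its partner; ENSMUSG00000033191) at chr4:118328385-118347261. Eng (endoglin, a co-receptor for TGF-β and BMP ligands; ENSMUSG00000026814) lies at chr2:32535543-32574661. Vwf (von Willebrand factor, which tethers platelets; ENSMUSG00000001930) lies at chr6:125523737-125663642, and Emcn (endomucin, a sialomucin of capillaries and veins; ENSMUSG00000054690) at chr3:137046794-137138999. These positions are of GRCm39, the build of the count table.

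ETS transcription factors such as Erg bind a short core, and many endothelial genes are known to depend on them. The 250 bases before the start of the canonical transcript are shown for 3 members, Tie1, which followed Pecam1 and Esam closely over the tumors, and Tek and Vwf, which followed each other least. The sequences are 5′ to 3′ on the strand of the gene, and capitals mark GGAAG or its reverse complement CTTCC, a core of the ETS motif. The windows are chr4:118347259-118347508 on the minus strand for Tie1, chr4:94627041-94627290 on the plus strand for Tek and chr6:125529661-125529910 on the plus strand for Vwf.
Tie1: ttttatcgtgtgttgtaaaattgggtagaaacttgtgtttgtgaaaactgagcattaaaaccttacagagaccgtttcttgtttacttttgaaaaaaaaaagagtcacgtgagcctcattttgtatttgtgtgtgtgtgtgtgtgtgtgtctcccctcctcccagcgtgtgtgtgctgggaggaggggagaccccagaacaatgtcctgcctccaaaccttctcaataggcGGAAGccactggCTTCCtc
Tek: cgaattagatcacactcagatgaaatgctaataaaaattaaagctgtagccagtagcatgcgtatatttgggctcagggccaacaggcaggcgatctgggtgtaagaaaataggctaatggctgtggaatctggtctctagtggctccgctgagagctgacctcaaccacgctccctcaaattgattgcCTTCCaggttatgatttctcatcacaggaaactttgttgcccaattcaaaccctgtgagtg
Vwf: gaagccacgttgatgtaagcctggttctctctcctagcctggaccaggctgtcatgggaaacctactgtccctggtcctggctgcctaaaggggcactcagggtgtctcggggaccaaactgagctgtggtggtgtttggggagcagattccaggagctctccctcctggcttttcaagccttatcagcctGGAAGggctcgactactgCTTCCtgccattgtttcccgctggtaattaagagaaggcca
The window was read for 9 members, and the core stood in 7 of these 9, and in 63.8% of the 21630 protein-coding genes of the table. It stood at 2 or more places in 3 of them (Tie1, Vwf and Emcn), against 29.3% of these genes. No other motif was searched, so overlap with other motifs was not considered. The windows of Pecam1 and Cldn5 did not hold these letters.

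Between 16475735 and 31218475 reads were counted on genes per tumor, and between 25249060 and 36173502 per culture. Skeletal muscle markers differed between pieces, with a summed level of 6.63 to 247 CPM in control tumors, 55.1 to 359 CPM in m.12,436 40% tumors and 6.61 to 393 CPM in m.12,436 60% tumors, and the 10 genes of that list were above 0 in every group. The cultures 1 and 2 stood apart from the cultures 3 and 4 of both cell groups in some genes, among them Vegfa, at 113, 122, 28.9 and 40.1 CPM in control cells. CPM is the count of a gene per 1e6 counts after TMM scaling.

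The members were read in the tumors and were nearly absent from the cultured cancer cells, with 1 exception. Pecam1 had 1 to 4 counts per control culture and 55.7 to 79.5 CPM in control tumors. Tie1 and Emcn had 0 counts in all 8 cultures, and Cldn5 had 0 in the 4 control cultures. Against the floor of 3 counts over the 4 cultures, Tie1 was at least 1182-fold, Emcn at least 314-fold and Cldn5 at least 540-fold higher in control tumors than in control cells. The ratio was 1151 for Pecam1 (95% interval 558 to 2864) and 935 for Cdh5 (523 to 1875), from 7 and 11 counts over the control cultures. For Vwf it was 207 (134 to 339), from 20 counts, and for Kdr 457 (210 to 1247), from 6 counts. These exact binomial intervals cover counting error only, and reads without molecular identifiers are not independent molecules. The third control culture held 9 of the 11 counts of Cdh5 and 5 of the 6 of Kdr, so these ratios rest largely on 1 culture. Vwf had 8, 10, 0 and 2 counts in the 4 control cultures. Eng was the exception, with 2476 to 3495 counts per control culture and 2181 to 2966 per m.11,944 60% culture, and 129 ± 3.13 CPM in control tumors against 100 ± 7.73 in control cells (SD, n = 4 each, scaled together). The log2 difference of Eng was 0.37 ± 0.09 (SE) with an adjusted p of 0.00828. All 10 members passed an adjusted p under 0.1 in edgeR's quasi-likelihood test of control tumors against control cells, and so did 65.2% of the 15047 genes tested.

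The level of a member per kilobase of its canonical transcript gave an order. Eng was highest, at 39.5 ± 3.02 CPM per kilobase (SD, n = 18 tumors), and its lowest tumor, at 34.3, was above the highest of any other member. Cdh5, at 18.6 ± 3.98, and Pecam1, at 16.7 ± 3.01, followed and overlapped. Cldn5, at 8.71 ± 2.61, Esam, at 7.71 ± 1.81, and Tie1, at 6.30 ± 1.41, formed the next step, and neighbours in it did not differ beyond their spread. Vwf, at 3.80 ± 1.44, Kdr, at 3.73 ± 0.716, and Emcn, at 2.69 ± 0.651, also overlapped. Tek was lowest, at 1.05 ± 0.275 CPM per kilobase.

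The members also differed in how widely they varied over tumors. Vwf had the widest spread, with a coefficient of variation of 38.1% and a highest tumor 3.57 times the lowest. Cldn5 followed with 30.01%, and Tek with 26.3%. Eng had the narrowest, 7.64%, and its highest tumor was 1.32 times its lowest, so the member that cultured cancer cells also expressed varied least. Counts per tumor were from 52 to 197 for Tek, the member with the fewest, and from 995 to 3249 for Cdh5.

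**Figure D1:**
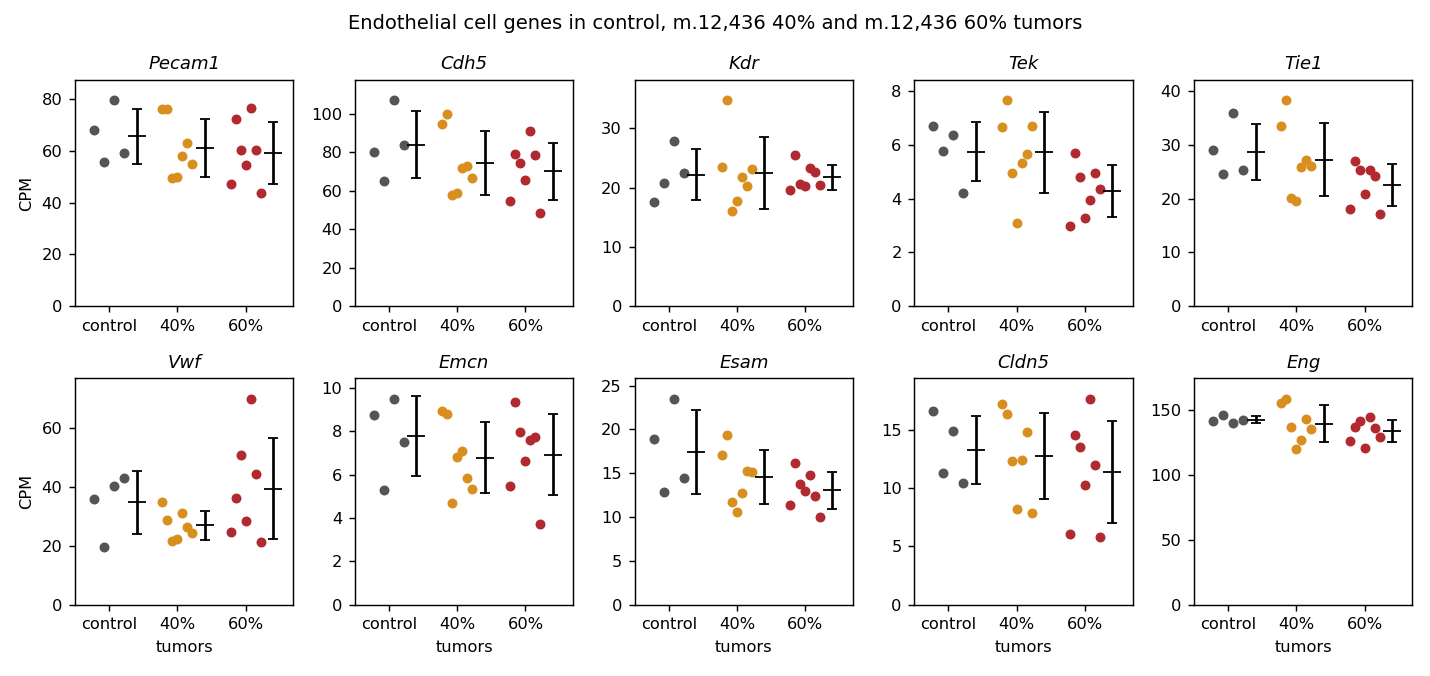
Levels of the 10 endothelial cell genes in CPM (vertical axis from 0) in each tumor (points) of the control, m.12,436 40% and m.12,436 60% groups, with the mean and SD as a bar beside the points. The 3 groups overlap for every gene, and Eng shows the narrowest spread.

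The first question was whether the vessel genes of high-heteroplasmy tumors differed from those of control tumors. None of the 10 members passed an adjusted p under 0.1 for m.12,436 60% against control tumors, against 2.31% of the 16213 genes tested (374 genes). With voom and with DESeq2 the count was also 0. At an unadjusted p under 0.05 there was 1 member, Esam, against 16.3% of all genes. The log2 fold change was below 0 for 9 of the 10 members, against 50.6% of all genes, with a median of -0.20 over the members and -0.0025 over all genes. The members follow one another over tumors, so these 9 are not 9 separate observations. For no member were the 2 groups free of overlap, against 4.07% of all genes. In a tumor piece, fewer endothelial cells and less RNA per cell cannot be told apart.

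The junction genes were lower on average in m.12,436 60% tumors, within the spread between tumors. Esam was at 18.9, 12.8, 23.5 and 14.4 CPM in the 4 control tumors, and at a lowest, median and highest of 9.996, 12.9 and 16.2 CPM in the 7 m.12,436 60% tumors. The control tumors 1 and 3 were above every m.12,436 60% tumor, and the control tumors 2 and 4 lay among them. The difference was -0.42 ± 0.17 on the log2 scale (SE), with an unadjusted p of 0.0253 and an adjusted p of 0.238 by edgeR. Cdh5 was at 80.1, 64.8, 107 and 84.0 CPM in control tumors and at 48.5, 74.3 and 90.8 in m.12,436 60% tumors (lowest, median and highest), a difference of -0.26 (95% interval -0.64 to 0.12). Pecam1 was at 68.2, 55.7, 79.5 and 59.1 CPM in control tumors and at 43.7, 60.2 and 76.4 in m.12,436 60% tumors, a difference of -0.15 (-0.48 to 0.18). In all 3 genes the second control tumor was the lowest of its group and the third the highest, the highest m.12,436 60% tumor was below the third control tumor, and the lowest was below every control tumor. Cldn5 had a wider interval, from -0.82 to 0.37, around -0.22.

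No receptor passed either. Tek was at 6.69, 5.76, 6.35 and 4.20 CPM in control tumors and at 3.00, 4.37 and 5.70 in m.12,436 60% tumors (lowest, median and highest), a log2 difference of -0.42 ± 0.21 (SE) with an adjusted p of 0.315 by edgeR. Tie1 was at 29.1, 24.6, 36.0 and 25.3 CPM in control tumors and at 17.1, 24.3 and 27.0 in m.12,436 60% tumors, a difference of -0.35 ± 0.17. For both angiopoietin receptor genes, 3 or more of the 4 control tumors were above the median m.12,436 60% tumor, and the lowest control tumors lay inside the m.12,436 60% range. Kdr, the VEGF receptor, was at 17.5, 20.8, 27.8 and 22.4 CPM in control tumors and at 19.5, 20.5 and 25.4 in m.12,436 60% tumors. Its difference was -0.03 (95% interval -0.36 to 0.31), and it was 0.11 without the third control tumor. Eng had the tightest interval, -0.24 to 0.05 around -0.09, from 142, 146, 140 and 142 CPM in control tumors.

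Vwf and Emcn, the genes of the vessel's luminal face and its clotting factor, were also within the spread. Vwf was at 35.8, 19.5, 40.4 and 43.1 CPM in control tumors and at 21.3, 36.1 and 69.8 in m.12,436 60% tumors, and was the 1 member with a mean above that of control tumors, by 0.18 (-0.42 to 0.78) on the log2 scale, and by -0.0084 without the second control tumor and -0.0069 without the fifth m.12,436 60% tumor. Its highest 2 tumors, at 69.8 and 50.9 CPM, were both m.12,436 60% tumors. Emcn was at 8.76, 5.30, 9.48 and 7.51 CPM in control tumors and at 3.70, 7.61 and 9.32 in m.12,436 60% tumors, a difference of -0.17 (-0.63 to 0.29).

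At the lower heteroplasmy, 0 of the 10 members passed for m.12,436 40% against control tumors in edgeR, voom and DESeq2, where 0% of all genes passed in edgeR. At an unadjusted p under 0.05 there were again 0 members, against 5.09% of all genes. The log2 fold change was below 0 for 9 members (48.7% of all genes) with a median of -0.09, and groups did not overlap for 0 members (0.45% of all genes). Without the third control tumor it was below 0 for 5 of the 10 members. Tek, at 3.08, 5.65 and 7.66 CPM (lowest, median and highest of 7), differed by -0.01 (-0.44 to 0.43). Kdr, at 15.97, 21.8 and 34.7 CPM, differed by 0.02 (-0.32 to 0.35). The largest difference was that of Vwf, at 21.5, 26.4 and 35.0 CPM, by -0.36 (-0.95 to 0.23). The control tumors are the same in both comparisons, so the 2 sets of values are not independent.

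The last comparison set the 2 heteroplasmies against each other, with 7 tumors on each side. By edgeR, voom and DESeq2, 0 members passed for m.12,436 60% against m.12,436 40% tumors, against 1.81% of all genes by edgeR (293 genes). The unadjusted p was under 0.05 for 2 members, Tek and Vwf, against 14.1% of all genes, and they pointed opposite ways. Tek was lower by 0.42 ± 0.18 (SE, log2 scale) in the m.12,436 60% tumors, with an unadjusted p of 0.0302 and an adjusted p of 0.293 by edgeR. Vwf was higher by 0.54 ± 0.24, with an unadjusted p of 0.0397 and an adjusted p of 0.325. For 8 members the log2 fold change was below 0 (51.1% of all genes), with a median of -0.07, and for 0 members were the groups free of overlap (0.623% of all genes). Pecam1 differed by -0.05 (-0.33 to 0.23) and Cdh5 by -0.09 (-0.41 to 0.24), so the intervals of both leave out a change of 1 on the log2 scale in either direction.

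**Figure D2:**
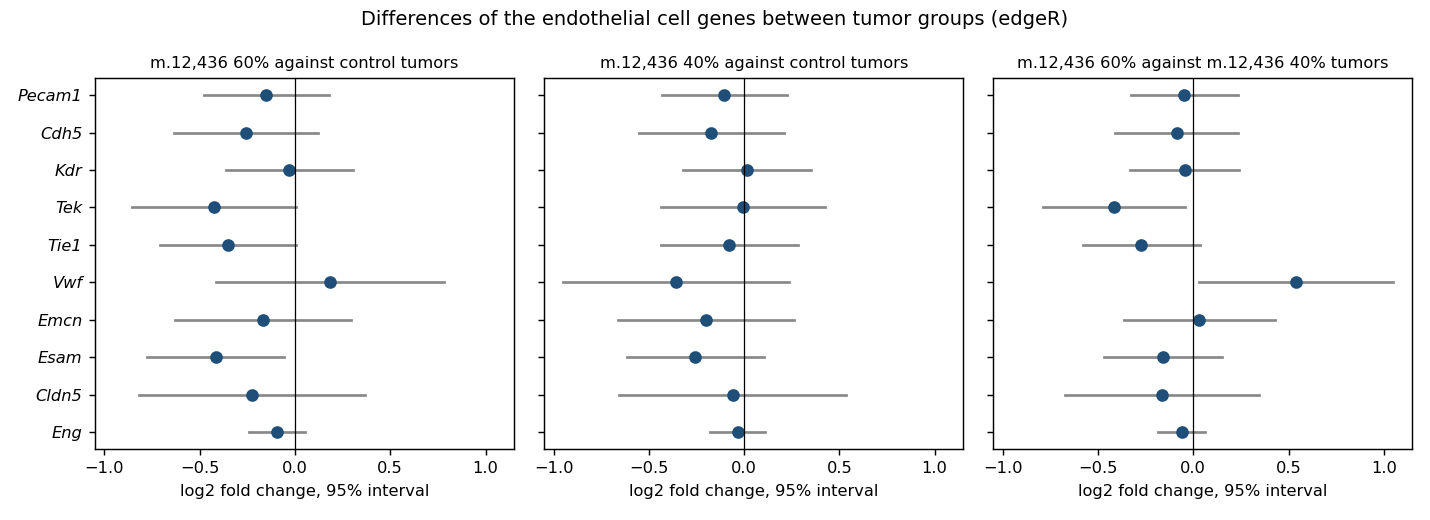
Log2 fold change of each endothelial cell gene (points, horizontal axis) with its 95% interval (lines) from edgeR for the 3 comparisons of tumors, 4 control, 7 m.12,436 40% and 7 m.12,436 60%. Only Esam in the first panel and Tek and Vwf in the third have intervals that leave out 0, and none of these passed after adjustment.

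Within the groups the members rose and fell together from tumor to tumor. With log2 CPM and group means subtracted, the 45 pairs of members had a median Pearson r of 0.71 over the 18 tumors, from 0.26 to 0.96, and 0 pairs were below 0. By permutation of tumors within groups (100000 draws, two-sided), 41 pairs had an adjusted p under 0.1 for r and 44 for Spearman's rho, with adjustment over the 45 pairs. As a background, the median r of all 16138 other genes with Cdh5 was 0.02, and that of the 9 other members was 0.82. An r of at least 0.8 with Cdh5 was found for 6 of these 9 and for 0.471% of all genes. All tumors share these group means and scaling, and a gene's r over tumors describes pieces and not cells. Within the 7 m.12,436 60% tumors the median r of the pairs was 0.75, and within the 7 m.12,436 40% tumors it was 0.79.

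Pecam1, Cdh5, Tie1 and Esam formed the tightest group. Pecam1 and Cdh5 had an r of 0.96 and a rho of 0.91, with a permutation p of 1e-05 for each, the smallest the draws can give, and adjusted values of 0.00011 and 9e-05. Without the 2 tumors farthest from the median of Pecam1, r was 0.94. Cdh5 and Tie1 had an r of 0.94 and a rho of 0.91 (permutation p 1e-05 for each), and 0.92 without 2 tumors. Tie1 and Esam had an r of 0.93 and a rho of 0.94 (permutation p 1e-05 for each), and 0.90 without 2 tumors.

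The 5 pairs with the lowest r each held Tek, Kdr or Emcn. Tek and Vwf had an r of 0.26 and a rho of 0.27, with permutation p values of 0.29 and 0.284, and an r of 0.07 without 2 tumors. Tek and Emcn had an r of 0.34 (adjusted permutation p 0.191) and a rho of 0.54 (adjusted 0.0382), and Emcn and Eng an r of 0.38 (adjusted 0.142) and a rho of 0.50 (adjusted 0.0529). Kdr and Cldn5 had an r of 0.36 (permutation p 0.12, adjusted 0.129) and a rho of 0.47 (0.0521, adjusted 0.0545). Kdr and Vwf had an r of 0.36 (permutation p 0.0715, adjusted 0.0785) and a rho of 0.50 (0.0379, adjusted 0.0438). Each of Kdr, Tek and Vwf followed some other member more closely, Kdr with Tie1 at an r of 0.80 and a rho of 0.78, Tek with Tie1 at 0.74 and 0.73, and Vwf with Cdh5 at 0.82 and 0.82 (adjusted permutation p at most 0.00534). With the junction gene Cdh5, Kdr had an r of 0.74 and Tek of 0.52 (adjusted permutation p 0.00123 and 0.0456). Eng, which cultured cancer cells also express, had a median r of 0.65 with the other members.

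**Figure D3:**
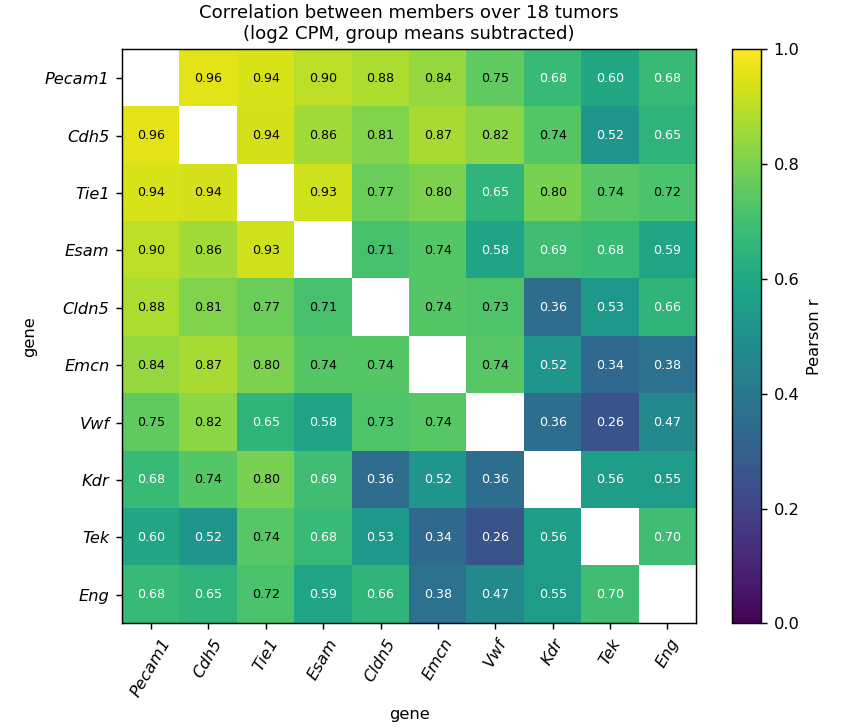
Pearson r between each pair of endothelial cell genes over 18 tumors, from log2 CPM with the mean of each group subtracted (colour and printed value, from 0 to 1). The values are highest among Pecam1, Cdh5, Tie1 and Esam and lowest for Tek with Vwf, at 0.26.

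The tumors at the ends of these relations can be named. In the m.12,436 60% group the seventh tumor was the lowest for 7 of the 9 members other than Eng, and the second was the highest for 5. In the m.12,436 40% group the second tumor was the highest for 6 of these 9, and the third was the lowest for 5. Among control tumors the third was the highest for 6, and the second was the lowest for 6.

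Set against the geometric mean of the other 8 members without Eng, Vwf was higher in most m.12,436 60% tumors than in m.12,436 40% tumors. The ranges of the 2 mutant groups overlapped, and control tumors fell in both. This ratio was 1.64, 1.12, 1.58 and 2.33 in the control tumors. It was between 1.096 and 1.68 in the 7 m.12,436 40% tumors and between 1.66 and 3.37 in the 7 m.12,436 60% tumors. In log2 terms 5 of the 7 m.12,436 60% tumors were above every m.12,436 40% tumor, and for Tie1 5 of 7 were below every m.12,436 40% tumor. The other 8 members of the Tie1 ratio include Vwf, so the 2 ratios are not separate observations. These ratios were chosen after the values were seen and were not tested.

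The genes most like the members were sought among those with a mean log2 CPM of at least 1. The measure was the r of a gene's group-centred log2 CPM with the mean group-centred z score of the 10 members over 18 tumors. First was Rasip1, a regulator of vessel lumen formation, at 0.96, followed by Mmp15, a membrane-bound metalloproteinase, at 0.94 and Sox18, an endothelial transcription factor, at 0.93. The next were Col4a2 and Nid2, which encode basement membrane proteins, at 0.92 and 0.91, then Arhgef15 and Akap12, both at 0.91, Dbn1, which encodes an actin-binding protein, at 0.91, Mcam at 0.90 and Afap1l1 at 0.90. Of these 10, 3 (Rasip1, Sox18 and Arhgef15) were in the lists of other endothelial genes or endothelial transcription factors. Sox18 had 0 counts in the 4 control cultures, whereas Col4a2 had 16224 to 25712, so a gene can follow the members and still be expressed by the cancer cells.

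Over the same tumors Cdh5 was set against 1 gene from each of 15 other lists, with adjustment over the 15. Erg, an endothelial transcription factor, had an r of 0.83 and a rho of 0.80 (permutation p 0.00016 and 0.00055, adjusted 0.0008 and 0.0027), and 0.80 without 2 tumors. Flt1 (VEGFR1) had an r of 0.79 and a rho of 0.77 (permutation p 0.00036 and 0.00072, adjusted 0.00135 and 0.0027), and an r of 0.68 without 2 tumors. Pdgfrb, the receptor that marks pericytes, had an r of 0.85 and a rho of 0.85 (permutation p 2e-05 and 4e-05, adjusted 0.00015 and 0.0006), and 0.87 without 2 tumors. Vegfa, the main ligand of Kdr, had an r of 0.57 (permutation p 0.0216, adjusted 0.0648) and a rho of 0.47 (0.0665, adjusted 0.182), an r of 0.42 without 2 tumors, and an r of 0.75 within m.12,436 60% tumors and -0.01 within m.12,436 40% tumors.

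Ptprc (CD45, which marks leukocytes) ran the other way. Its r with Cdh5 was -0.85 and its rho -0.85 (permutation p 1e-05 and 9e-05, adjusted 0.00015 and 0.000675). Without 2 tumors r was -0.88, within the m.12,436 60% tumors -0.90 and within the m.12,436 40% tumors -0.75. CPM values are shares of a library, so a higher share of one cell type lowers the others, and this part in the relation was not tested. The 10 leukocyte markers summed to 1296 to 1499 CPM in control tumors, 1010 to 1423 in m.12,436 40% tumors and 1265 to 1926 in m.12,436 60% tumors. Lyz2, 1 of these markers, made up a large part of the sums, at 815 to 1007, 499 to 834 and 740 to 1242 CPM. None of the 10 was at 0 in any of these groups. In m.12,436 60% against control tumors 1 of the 10 markers was called, and 2 had a log2 fold change below 0. Of those tested, Itgam, an integrin of myeloid cells, rose in m.12,436 60% tumors against control tumors by 0.38 ± 0.08 (SE, log2 scale, adjusted p 0.0261 by edgeR, 0.114 without the first control tumor), and the part of leukocytes in the lower means of the members was not tested. Against m.12,436 40% tumors Itgam rose by 0.42 ± 0.07 (adjusted p 0.00611) and Lyz2, a lysozyme of macrophages and neutrophils, by 0.52 ± 0.13 (adjusted p 0.0744). The call of Lyz2 was lost with only the 2 groups in the fit (adjusted p 0.105 by edgeR), with the replicate block (0.115), with no filter on low counts (0.199), with the skeletal muscle covariate (0.113) and without any 1 of 9 tumors. The other 10 genes, all with an adjusted p above 0.1, were Notch1, Nrp1, Vcam1, Acvrl1, Lyve1, Pf4, Acta1, Adipoq, Pdgfra and Mitf.

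**Figure D4:**
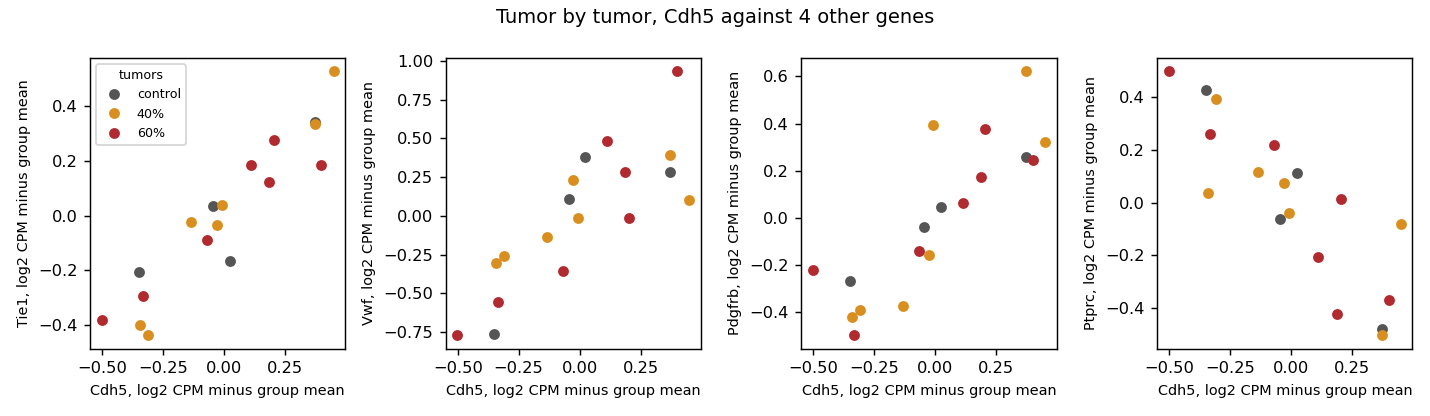
Cdh5 (horizontal axes) against Tie1, Vwf, Pdgfrb and Ptprc (vertical axes) in each of 18 tumors, as log2 CPM minus the mean of the group, coloured by group. Tie1, Vwf and Pdgfrb rise with Cdh5 (r of 0.94, 0.82 and 0.85), and Ptprc falls (r of -0.85).

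Around the receptors, the ligand genes gave the largest change. Of 10 VEGF and angiopoietin family ligands and related factors, 1 fell and 0 rose in m.12,436 60% against control tumors, where 2.31% of all genes passed. Angpt1, the ligand that activates Tek, was at 20.0, 39.2, 13.2 and 26.7 CPM in control tumors, at 14.8, 22.2 and 38.6 in m.12,436 40% tumors and at 7.24, 9.67 and 12.9 in m.12,436 60% tumors (lowest, median and highest). Every m.12,436 60% tumor was below every control and every m.12,436 40% tumor. Angpt1 fell by 1.31 ± 0.27 on the log2 scale (SE) against control tumors, with an adjusted p of 0.0307 by edgeR, and by 1.27 ± 0.24 against m.12,436 40% tumors, with an adjusted p of 0.0182. Without 1 tumor in turn the log2 fold change against control tumors was between -1.52 and -0.99 and the adjusted p was at most 0.0671, but with the replicate number as a block it was 0.107 and the call was lost. Control cultures had 3.07 to 4.20 CPM of Angpt1.

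Vegfc, the ligand of the lymphatic VEGF receptor, was at 25.6, 16.5, 19.9 and 23.2 CPM in control tumors, at 14.9, 19.1 and 24.4 in m.12,436 40% tumors and at 25.1, 28.3 and 32.2 in m.12,436 60% tumors. The 2 mutant groups did not overlap, and Vegfc was higher by 0.53 ± 0.10 in m.12,436 60% tumors (adjusted p 0.0157 by edgeR). Against control tumors the difference was 0.40 ± 0.12 with an adjusted p of 0.118, which voom and DESeq2 put under 0.1. Vegfa, at 88.9, 29.7, 95.2 and 58.3 CPM in control tumors, differed by 0.13 (-0.60 to 0.86) between m.12,436 60% and control tumors, an interval too wide to say more.

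Of the 12 TGF-β and BMP partners of Eng, 10 were tested. In m.12,436 60% against control tumors 1 rose and 0 fell (2.31% of all genes passed). Against m.12,436 40% tumors 1 rose and 1 fell (1.81% of all genes passed). Acvrl1 (ALK1), the type I receptor that works with Eng in endothelial cells, was at 22.2, 19.1, 22.4 and 19.2 CPM in control tumors, 17.2, 21.2 and 25.8 in m.12,436 40% tumors and 22.7, 28.3 and 30.7 in m.12,436 60% tumors. It rose by 0.40 ± 0.11 against control tumors (adjusted p 0.088) and by 0.38 ± 0.09 against m.12,436 40% tumors (adjusted p 0.0621), both by edgeR. Its r with Cdh5 over tumors was -0.44 and its rho -0.43 (permutation p 0.0926 and 0.0925, adjusted 0.188 and 0.182). The first of these calls was lost without any 1 of the 4 control tumors or the m.12,436 60% tumors 1, 2, 3, 4 or 7 (adjusted p 0.125 to 0.215), and the second without those same m.12,436 60% tumors or the m.12,436 40% tumors 1 or 6 (0.105 to 0.141). Smad1, which passes the BMP signal on, fell by 0.36 ± 0.07 against m.12,436 40% tumors (adjusted p 0.016), from 48.5, 56.8 and 67.6 CPM to 40.9, 46.1 and 52.3.

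Other genes that mark endothelium stayed mostly within the spread. Of 23 further endothelial genes, 1 fell, 0 rose and 22 did not pass in m.12,436 60% against control tumors, where 2.31% of all genes passed. Cd34, a sialomucin of endothelial and stem cells, was at 99.8, 115, 124 and 91.2 CPM in control tumors, 81.0, 107 and 133 in m.12,436 40% tumors and 64.4, 77.7 and 95.5 in m.12,436 60% tumors. It fell by 0.46 ± 0.12 against control tumors (adjusted p 0.0614 by edgeR) and by 0.45 ± 0.10 against m.12,436 40% tumors (adjusted p 0.0407). The first of these adjusted p values was 0.313 without the third control tumor, 0.12 without the first, and 0.114 and 0.105 without the m.12,436 60% tumors 1 and 7, and the second was 0.10 without the m.12,436 60% tumor 1. Control cultures held 40.1 to 64.6 CPM of Cd34, so, like Eng, it is not a gene of the vessels alone here. Of 14 endothelial transcription factors, 1 rose, Klf4, a factor of flow-exposed endothelium and many other cells, from 13.8, 15.6, 13.0 and 15.9 CPM in control tumors to 18.2, 21.9 and 25.2 in m.12,436 60% tumors, by 0.58 ± 0.16 (adjusted p 0.0977 by edgeR). Its call was lost without the first or the third control tumor, or any m.12,436 60% tumor (adjusted p 0.105 to 0.375), and with no filter on low counts (0.164), and cultures held 3.64 to 20.5 CPM in control cells.

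**Figure D5:**
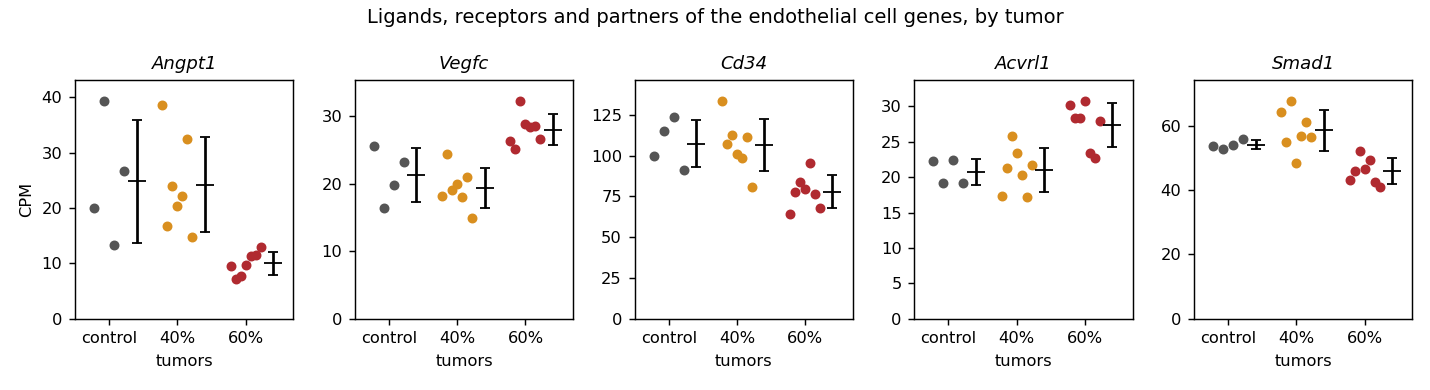
Angpt1, Vegfc, Cd34, Acvrl1 and Smad1 in CPM (vertical axis from 0) in each tumor of the control, m.12,436 40% and m.12,436 60% groups, with the mean and SD beside the points. The 7 m.12,436 60% tumors lie below all others for Angpt1, and above all m.12,436 40% tumors for Vegfc.

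The remaining vessel lists gave no call. None of the 7 genes of VEGF co-receptors and tip cells, of 8 tested Notch and ephrin genes, of 4 adhesion molecules of activated endothelium, of 4 tested lymphatic genes or of 13 pericyte and smooth muscle genes passed in any of the 3 comparisons of tumors by edgeR, and nor did 5 tested platelet genes. At an unadjusted p under 0.05 there were 2, 0, 1, 0, 2 and 2 of these in m.12,436 60% against control tumors, against 16.3% of all genes. After adjustment 2.31% of all genes passed there. Nrp1, a VEGF co-receptor, differed by 0.17 ± 0.08 there (SE, log2 scale, adjusted p 0.304), Hey1, a Notch target, by -0.44 ± 0.24 (adjusted p 0.376), and Icam1, a leukocyte adhesion molecule, by 0.49 ± 0.22 (adjusted p 0.268). Aplnr, of the list of Nrp1, went the other way, at a mean of 15.6 CPM in control tumors and 8.68 in m.12,436 60% tumors. Of the 7 genes of that list, 5 had a log2 fold change below 0. Kcnj8, a potassium channel of pericytes, differed by -0.52 ± 0.19 (adjusted p 0.177). Cspg4, of the same list, went the other way, at a mean of 8.65 CPM in control tumors and 13.9 in m.12,436 60% tumors. Of the 13 genes of that list, 10 had a log2 fold change below 0. Of 10 skeletal muscle genes, 10 had a log2 fold change below 0 in m.12,436 60% against m.12,436 40% tumors (51.1% of all genes). Their median was -0.71 and none was called. With the summed level of that list as a covariate 0 members were called in each of the 3 comparisons.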

How the data were processed

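RNA-seq was read from one table of raw counts per gene that the authors deposited. Per the study's methods, reads were aligned to GRCm39 with STAR and counted with featureCounts; the strand setting is not given in the sources used here. Of 47 columns, 26 were matched to samples and 21 were not used. The column names do not state the mtDNA position or the percentage. The match was inferred from headings in the study's source data and from how far the sample numbers run. Counts were scaled by TMM, kept by filterByExpr and tested with edgeR 4.0.16 (R 4.3.3, robust quasi-likelihood, two-sided, adjusted p under 0.1) in 1 fit of 18 tumors, and control tumors against control cells in another. Depth was 16475735 to 36173502 counts. The study used limma-voom, run here as an alternative (limma 3.58.1), as were DESeq2 1.42.0, other filters and scaling, a replicate block and each sample left out. Correlations used log2 CPM with a prior count of 2. Promoters were read from the GRCm39 sequence and GENCODE canonical transcripts for 9 members, and that of the other is not reported here. The tests were checked on simulated data. Separate mice or cultures are not stated for every sample, so p values measure the spread between these samples. Members and lists were chosen with earlier results of these data known. Named genes were the members, up to 4 called genes of each list or else the 1 or 2 with the smallest p, and the 10 genes nearest the members.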

Additional observations from a re-analysis of the deposited data

Results flagged for a closer look

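Kdr in the second m.12,436 40% tumor, at 34.7 CPM, stood apart from the other 6 of its group by Dixon's ratio, and Pmel, a pigment gene, did so in the third control tumor, at 8.79 CPM. With 59 groups of values examined, chance alone gives about 1 in 20. The fall of Pmel in m.12,436 60% against control tumors rested on that tumor, since its log2 fold change was -2.21 with it and -0.56 without it.

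For 4 genes called against control tumors at 60%, the effect also differed between the heteroplasmies by the edgeR test of m.12,436 60% against m.12,436 40% tumors. The log2 differences were -1.27 for Angpt1, -0.45 for Cd34, 0.38 for Acvrl1 and 0.42 for Itgam. The 10 endothelial cell genes could not be among them, since none was called against control tumors.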

How the results depend on the processing

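The count of called members was 0 in the 3 comparisons of tumors and 10 for control tumors against control cells under every alternative run, each left-out sample included. The median r over pairs of members, 0.708, was between 0.685 and 0.708 under the other settings and between 0.654 and 0.728 without 1 tumor. Counts over all genes moved more. Against control tumors at 60%, 374 genes became 1056 by DESeq2, 943 with only the 2 groups and 150 at an adjusted p under 0.05, and 66 to 724 without 1 tumor (66 without the third control tumor, 724 without the fourth). Between the mutant groups, 293 became 744, 178 without a filter and 113 at 0.05, and 108 to 452 without 1 tumor; at 40%, 0 became 5 by DESeq2 and 0 to 4 without 1 tumor. For 40% against control tumors, signs turned for Kdr with voom (-0.017), Angpt1 with voom (0.013), Tek with DESeq2 (0.00063) and its size factors (0.00016), and, with skeletal muscle as a covariate (chosen after seeing the data), Cldn5 (0.032), Cd34 (0.0051) and Acvrl1 (-0.0066), as did Emcn between mutant groups (-0.11).

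Without 1 tumor the log2 fold change at 40% against control tumors ran from -0.026 to 0.068 for Acvrl1, -0.24 to 0.29 for Angpt1, -0.072 to 0.068 for Cd34, -0.15 to 0.062 for Cldn5, -0.066 to 0.0038 for Eng, -0.095 to 0.016 for Itgam, -0.12 to 0.15 for Kdr, -0.17 to 0.0096 for Pecam1, -0.12 to 0.10 for Tek and -0.18 to 0.056 for Tie1. At 60% it ran from -0.13 to 0.11 for Kdr and -0.0084 to 0.32 for Vwf, and between mutant groups from -0.054 to 0.14 for Emcn, -0.11 to 0.091 for Kdr and -0.12 to 0.015 for Pecam1. The cause of these turns was not tested.

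No label ties same-numbered tumors to a shared mouse or batch, and they did not deviate together (mean r -0.16, -0.0058 and -0.026). With the replicate block, members called stayed at 0 in each comparison, 283 and 266 genes were called for 60% against control and against 40% tumors, Angpt1 against control tumors had an adjusted p of 0.107, and at 40% Cldn5 (0.0010), Cd34 (0.088) and Angpt1 (0.064) changed sign. The calls of Acvrl1, Klf4 and Lyz2 were lost without 9 single tumors each in 1 comparison. Depth limits Tek most, with 52 counts in its lowest tumor.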
